A study of Danio rerio with 40 samples.

Results

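Single-strand piRNA clusters are genome regions whose Piwi-interacting RNAs, the piRNAs, come from one DNA strand. The clusters described here were predicted from zebrafish sperm reads, carry a plus or a minus strand in their names, and lie outside chromosome 4. They make up 617 of the 1434 clusters in the deposited piRNA table, 317 on the plus and 300 on the minus strand. Some of them have the same value in every library, and once these are counted once there remain 588 of 1398 clusters, 297 plus and 291 minus. Another 105 single-strand clusters lie on chromosome 4 and are not members.

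piRNAs are small RNAs of the animal germ line that guide Piwi proteins to transposon transcripts, which are then cleaved or silenced. They are cut from long precursor RNAs transcribed from clusters, which often hold the remains of old transposon insertions. A cluster read on one strand gives piRNAs of one orientation, whereas a two-strand cluster gives both. Here the strand is that of the prediction, and whether all reads of a cluster came from it was not tested. In the fish germ line, the Piwi proteins Ziwi and Zili bind piRNAs, and germ cells are lost without Ziwi.

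Sperm came from single wild-type AB males after treatments of 2 weeks each. In the High treatment a tank held 2 males and 1 female, and in the Low treatment 1 male and 2 females. Males of one line went through Low and then High and gave the Low1 and High2 samples, while males of the other line gave High1 and then Low2. The piRNA table holds 6 libraries of each group, so 24 in all, and groups follow the prefix of the sample titles. The titles do not spell out the group. Ha was read as High1, La as Low1, Lb as High2 and Hb as Low2, with the first letter taken as the first treatment of a line. The treatment field of the public record gives 13 of the 24 libraries another group. It nearly exchanges the second-period groups. Of the 6 libraries titled Lb, here High2, it puts 5 in Low2 and 1 in Low1, and of the 6 titled Hb, here Low2, it puts 5 in High2. Of the 6 titled La, here Low1, it puts 1 in High1 and 1 in Low2. Which source is right cannot be told from the labels, so each direction between groups holds for this reading of the titles only. Reads summed over clusters, where a read may count in more than one cluster, ranged from 5983071 to 56435023 per library. By this sum, Low2 replicates 2 and 3 were the shallowest with 7414024 and 5983071. Values are normalised reads, meaning the reads of a cluster divided by a size factor of its library. As markers of other cells, 3 blood miRNAs had 107.6 to 826.6 CPM of miRNA reads, 3 muscle miRNAs 120.4 to 1117, 1 liver miRNA 777.5 to 4404 and 2 gonad miRNAs 344.7 to 4004, with overlapping ranges in the 4 groups. Their part in the results was not tested. Since sperm was measured in bulk, fewer cells of a type and less RNA per cell cannot be told apart.

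The clusters were spread over all 24 chromosomes other than chromosome 4. Of the 588, 472 lie on the reference chromosomes, 99 on alternative haplotypes and 17 on unplaced scaffolds. Chromosome 22 had the highest density, with 33 clusters or 8.43 per 10 Mb, of which 21 were plus and 12 minus. Chromosomes 3, 14 and 18 followed with 5.75, 5.32 and 5.10 per 10 Mb. Chromosomes 10 and 13 had the lowest densities, 1.32 and 1.53 per 10 Mb. Chromosome 10 held 1 plus and 5 minus clusters on the reference, whereas chromosomes 9 and 14 had as many plus as minus clusters, 6 of each and 14 of each. Together the 472 clusters cover 6.05 Mb, and on chromosome 22 they cover 1.18% of the sequence. Positions are those of build GRCz11, as the cluster names give them, and gene annotation of that build was not used here.

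**Figure D1:**
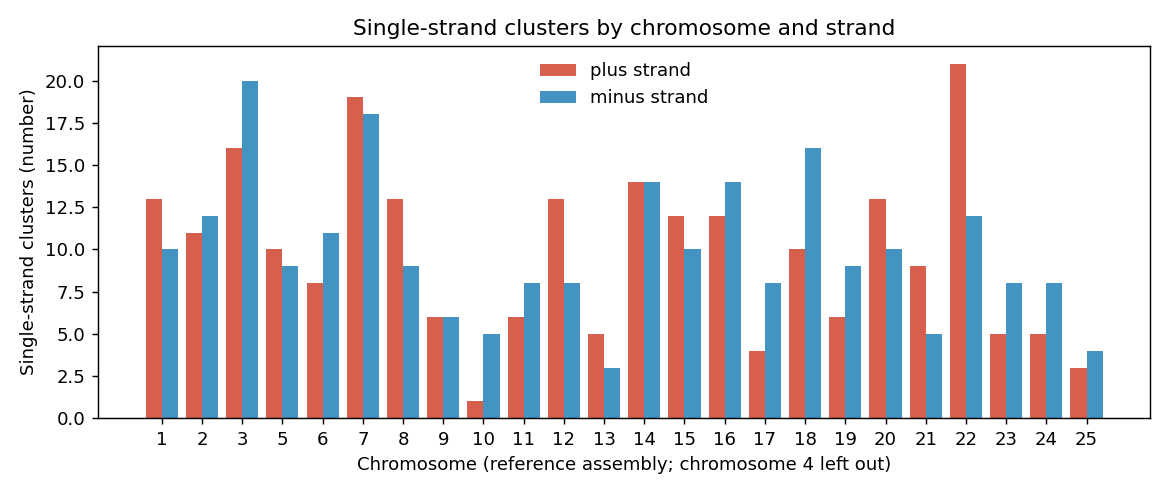
Number of single-strand clusters (y axis) on each reference chromosome other than 4 (x axis), with plus-strand and minus-strand clusters as separate bars. Chromosome 7 holds the most, 19 plus and 18 minus, and chromosome 22 has 21 plus against 12 minus.

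Close neighbours lay on the same strand about as often as distant ones. Of 34 neighbouring pairs less than 50 kb apart, 18 had the same strand, and of 414 farther apart, 202 did. The share of clusters within 1 Mb of a chromosome end was 3.60%, and these windows make up 3.79% of the chromosomes. A cluster of the piRNA cluster database overlapped 67 of the 472 by at least 1 base, 42 on the plus and 25 on the minus strand. The other 405 occur in the table only as predictions.

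Alternative haplotypes account for the rows with the same values. The 28 sets of identical rows hold 57 rows, and each of the 28 sets joins a reference cluster to at least 1 alternative copy of it. None of the sets mixed strands.

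Plus and minus clusters had nearly the same length. The median was 10.99 kb for plus and 10.98 kb for minus clusters, with ranges of 4.71 to 109.0 kb and 4.86 to 91.93 kb. The longest plus clusters were chr8:45178005-45287032 on an alternative haplotype, at 109.0 kb, and chr8:44870330-44916019, at 45.7 kb. The longest minus clusters were a reference and an alternative version of one place on chromosome 16, chr16:9451003-9537008 (86.0 kb) and chr16:9452074-9544006 (91.9 kb). The shortest were chr1:32315046-32319760 and chr22:27594001-27598862 on plus, and chr2:14687000-14691858 and the alternative chr14:12674015-12678910 on minus, all between 4.71 and 4.90 kb.

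Most clusters were of moderate abundance and a few were far above the rest. The mean over the 24 libraries had a median of 1656 normalised reads in plus and 1500 in minus clusters, and per kb 134.0 and 124.5. The 10th and 90th percentiles over both strands were 452.3 and 4951 normalised reads, while the most abundant reached 286543. Across the 588 clusters, longer ones held more reads (Spearman's rho 0.547, a description over clusters that share libraries). Per kb this relation was weak, with rho 0.153. The median density was 100.2 normalised reads per kb in the shortest 147 clusters, up to 8.93 kb, and 143.9 in the longest 147, from 14.92 kb. Two-strand predicted clusters off chromosome 4 had a median density of 137.6 per kb and database clusters 122.1.

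**Figure D2:**
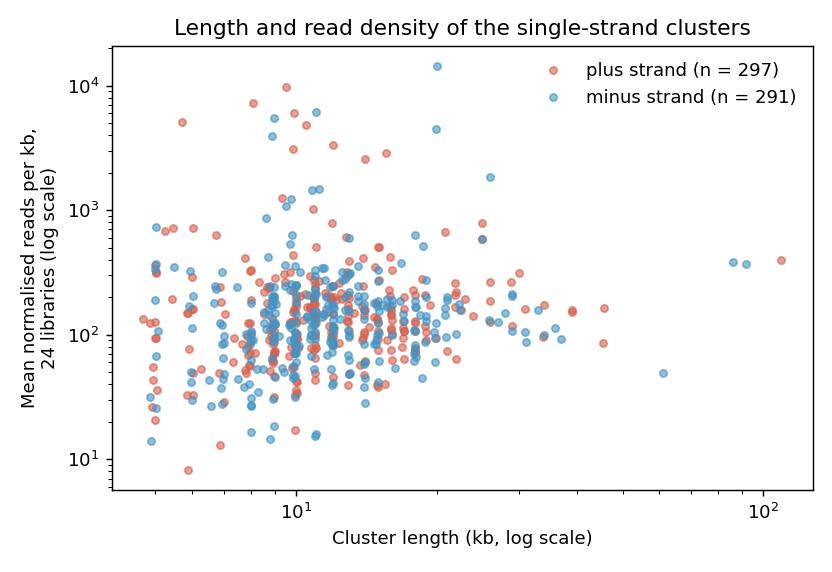
Mean normalised reads per kb over 24 libraries (y axis, log scale) against cluster length in kb (x axis, log scale), 1 point per cluster, with 297 plus and 291 minus clusters in separate colours. Both strands fill the same range of lengths, with medians of 10.99 and 10.98 kb, and a few clusters lie above the main cloud.

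Reads were concentrated in few clusters. The 10 most abundant held a median of 34.2% of the single-strand reads of a library, from 18.7% to 46.0%. The first was the minus cluster chr8:48510001-48530023, 20.0 kb long, which alone took 5.25% to 19.8% and also had the highest density, 14311 normalised reads per kb. Next came chr14:39709045-39718544 on plus, with a mean of 92131 normalised reads, and chr19:24919052-24938951 on minus, with 89393. They were followed by chr10:18800009-18811031 on an alternative haplotype (minus, 67772) and a plus cluster at bases 69 to 9946 of scaffold KN149977.2 (59459). Ranks 6 to 10 were chr11:19897861-19905931 (plus, 58877), chr13:11671138-11681626 (plus, 50843), chr6:47412001-47420962 (minus, 48988), chr6:43339000-43365021 (minus, 48154) and chr21:35918397-35933959 (plus, 44453). By density, the chromosome 8, 14, 11 and 10 clusters and the scaffold cluster led, from 14311 to 6020 normalised reads per kb.

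The chromosome 8 cluster was lower in High2 than in the other groups. It had 87624 to 275482 normalised reads in High2 (median 179699), 175872 to 572192 in Low1 (median 324319), 212807 to 572618 in High1 (median 269450) and 266275 to 403659 in Low2 (median 291692). High2 overlapped each of the other groups. The log2 fold change was -0.92 ± 0.31 (SE) against Low1, -0.85 ± 0.31 against Low2 and -0.87 ± 0.31 against High1. None passed limma's test across all 1434 clusters, with Benjamini-Hochberg adjusted p = 0.19, 0.40 and 0.46. The mean of each of the 10 most abundant clusters was lowest in High2, which held for 249 of the 588 clusters, or 42.3%. No such share is given over all clusters, so the count shows nothing particular to single-strand clusters. The 10 took 27.6% ± 6.0 (SD, n = 6) of single-strand reads in High2, 38.0% ± 8.0 in Low1, 36.8% ± 5.3 in High1 and 37.3% ± 5.1 in Low2. These 10 are not independent of each other, as described further on for clusters that move together.

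The share of all cluster reads that fell on single-strand clusters did not differ detectably between groups. It was 9.69% ± 2.84 (SD, n = 6) in Low1, 8.48% ± 3.07 in High2, 8.85% ± 2.66 in High1 and 7.69% ± 2.89 in Low2. Single libraries ranged from 3.81% to 13.6%, and the groups overlapped throughout. In the 6 comparisons the two-sided exact permutation test over libraries gave p from 0.26 to 0.83, and adjusted over the 6 from 0.77 to 0.83. Within the sequencing pools that held both groups, differences went in both directions in all 6 comparisons. Leaving out the 2 shallowest libraries turned the direction of Low2 against High1, from -1.16 to 0.62 percentage points, and of High2 against Low2, from 0.79 to -0.993. Single-strand reads exceeded those of two-strand predicted clusters, 0.737% to 3.36%, in 24 of 24 libraries, and were fewer than those of database clusters in 24 of 24. These are sums over 588 single-strand, 130 two-strand and 374 database clusters, so they do not compare clusters one by one. Per cluster, the mean over libraries had a median of 1602, 1849 and 1026 normalised reads.

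The share of single-strand reads on plus clusters was higher in High2 than in Low2 and High1. The strand is that in the cluster name, and the orientation of single reads is not given. It was 49.2% ± 0.85 (SD, n = 6) in High2, 47.4% ± 1.03 in Low2, 47.2% ± 1.34 in High1 and 47.7% ± 1.53 in Low1. High2 libraries ranged from 48.5% to 50.9%, and Low2, High1 and Low1 libraries from 46.3% to 48.8%, 45.2% to 49.0% and 46.0% to 49.9%. The difference was 1.79 percentage points against Low2 and 2.07 against High1, each with exact permutation p = 0.0087 and adjusted p = 0.026 over the 6 comparisons. Against Low1 it was 1.57 points, with exact permutation p = 0.071 and adjusted p = 0.14. The other 3 differences were at most 0.50 points in size, with adjusted exact permutation p = 0.78. High2 was above Low2 in 4 of 4 pools with both groups, by 1.66 to 2.56 points, and above High1 in 3 of 4, from -0.48 to 3.81 points. The comparisons share the High2 libraries. With single libraries left out, the call against Low2 was lost in 8 of 12 cases and that against High1 in 9 of 12, each time at adjusted p = 0.052 by the exact permutation test.

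This difference in strand share rested on the chromosome 8 cluster. The cluster took 9.24% ± 2.69 of single-strand reads in High2 and 12.4% ± 2.54, 13.4% ± 3.70 and 13.0% ± 3.58 in Low2, High1 and Low1 (SD, n = 6). Without it the plus share was 54.3% ± 1.12 in High2, 54.2% ± 1.86 in Low2, 54.5% ± 1.81 in High1 and 54.8% ± 1.41 in Low1. With the 3 most abundant clusters left out, High2 against Low2 became -0.14 and High2 against High1 -0.26 percentage points, both with adjusted exact permutation p = 0.89. Grouped by the public treatment field, the differences from Low2 and High1 were -0.878 and 0.65 points, and neither passed the threshold.

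**Figure D3:**
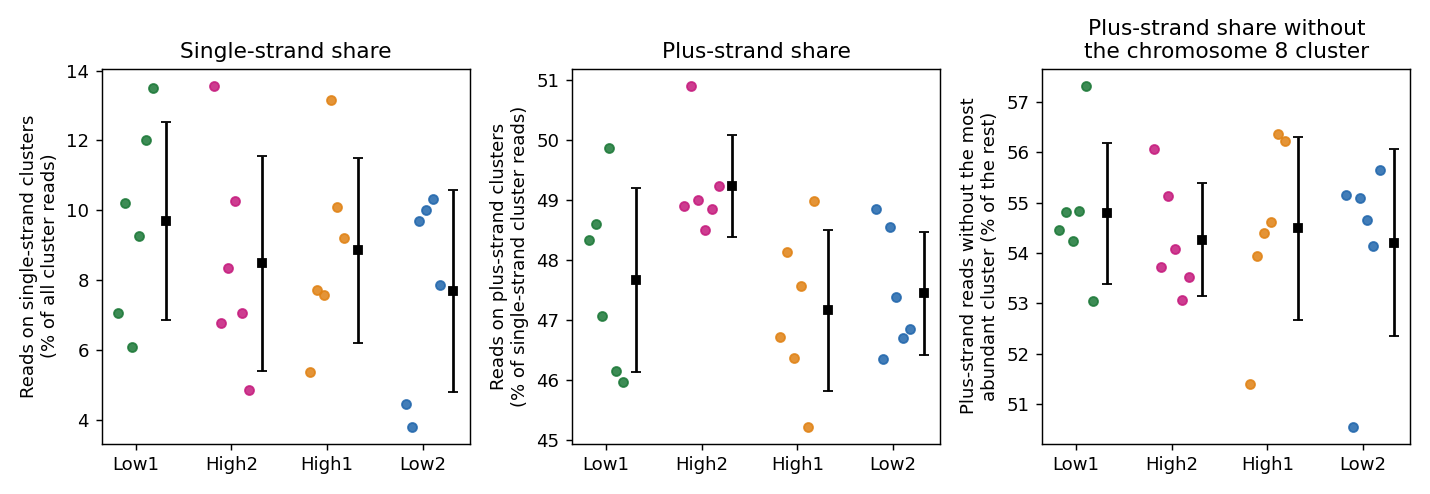
Percent of all cluster reads on single-strand clusters (left), percent of single-strand reads on plus-strand clusters (middle) and the latter without the most abundant cluster (right), 1 point per library, by group, with mean and SD as black squares and bars (n = 6). High2 averages 49.2% in the middle panel against 47.2% to 47.7% in the other groups, and 54.3% against 54.2% to 54.8% in the right panel.

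Most libraries thus had fewer reads on plus than on minus clusters in sum, 23 of 24, although the typical plus cluster held more. The median log2 value of plus clusters was above that of minus clusters in 22 of 24 libraries, with a difference from -0.03 to 0.27. Its mean was 0.15 ± 0.07 (SD, n = 6) in High2, 0.09 ± 0.06 in Low1, 0.05 ± 0.04 in High1 and 0.09 ± 0.10 in Low2. Without the chromosome 8 cluster, plus clusters held over 50% in 24 of 24 libraries, from 50.6% to 57.3%.

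High2 against Low1 compared the 2 treatments within the Low-first line, and it had the most clusters below an unadjusted p of 0.05. At an adjusted p of 0.05, limma called 0 of the 588 single-strand clusters and 0% of all 1398 clusters. At an unadjusted p under 0.05 it had 98 of the 588 (16.7%), beside 14.0% of all clusters. Of the 98, 80 were lower in High2 (13.6%, beside 9.80% of all clusters) and 18 higher (3.06%, beside 4.22%). Two-strand clusters were similar, with 12.3% lower and 2.31% higher, whereas database clusters had 4.01% lower and 7.49% higher. The 80 had a median log2 fold change of -0.55 and the 18 of 0.49. By strand, 40 plus and 40 minus clusters were lower, and 12 plus and 6 minus were higher. With each library centred on its median, 68 were lower and 29 higher, and with the sequencing pool as a covariate 64 were lower and 15 higher. The 2 groups were spread unevenly over the pools. Pool 4 held 1 High2 and 3 Low1 libraries, pool 5 held 3 High2 and 1 Low1, and pool 3 held neither group. Grouped by the public treatment field, 43 of the 588 were below that p, and in a fit of High2 and Low1 alone 165. For counts in these alternatives no share over all clusters is given, so they show nothing particular to single-strand clusters. The median log2 fold change was -0.05 over the 588, 0.01 over all clusters, -0.10 over two-strand and 0.14 over database clusters. In the shortest 147 clusters it was 0.02 and in the longest 147 it was -0.12.

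The cluster with the smallest p was chr16:14845000-14858022, on minus and 13.0 kb long. It had 3350 to 4142 normalised reads in High2 (median 3527), 3936 to 6199 in Low1 (median 4811), 3585 to 4029 in High1 (median 3734) and 3540 to 4298 in Low2 (median 3957). Low1 stood above the other 3 groups, with an overlap of 1 or more libraries in each case. The log2 fold changes were -0.44 ± 0.11 for High2, -0.37 ± 0.11 for High1 and -0.31 ± 0.11 for Low2, all against Low1, with limma adjusted p = 0.16, 0.59 and 0.77. The other 2 were a pair on the plus strand of chromosome 6, chr6:29842000-29853219 and its alternative version chr6:29825000-29835935, whose values are nearly the same in every library. The reference member had 1807 to 2819 normalised reads in High2 (median 2160) and 2754 to 5210 in Low1 (median 3864), and 1 of the 6 Low1 libraries lay below the highest High2 library. Its log2 fold change was -0.79 ± 0.19 with limma adjusted p = 0.16.

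A fit of High2 and Low1 alone gave another count. In it limma called 24 of the 588 (4.08%) at an adjusted p under 0.05, beside 3.72% of all clusters. Lower in High2 were 21 of the 24, or 3.57% of the 588, beside 2.22% of all clusters. Of the 24, 13 were plus and 11 minus, and 21 also had an unadjusted p under 0.05 in the fit of all groups. The chromosome 6 pair was among them, with adjusted p = 0.041, and the chromosome 16 cluster was not. The smallest adjusted p, 0.032, belonged to chr25:23976000-23991019 (plus) with a log2 fold change of -0.66, and to chr14:11531004-11550866 (minus) with -0.51, both named after their values were seen. Of the 588, 10 had no overlap between the libraries of the 2 groups (1.70%, beside 2.29% of all clusters). Of these, 8 were lower and 2 higher in High2, or 1.36% and 0.34% of the 588, beside 1.00% and 1.29% of all clusters.

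**Figure D4:**
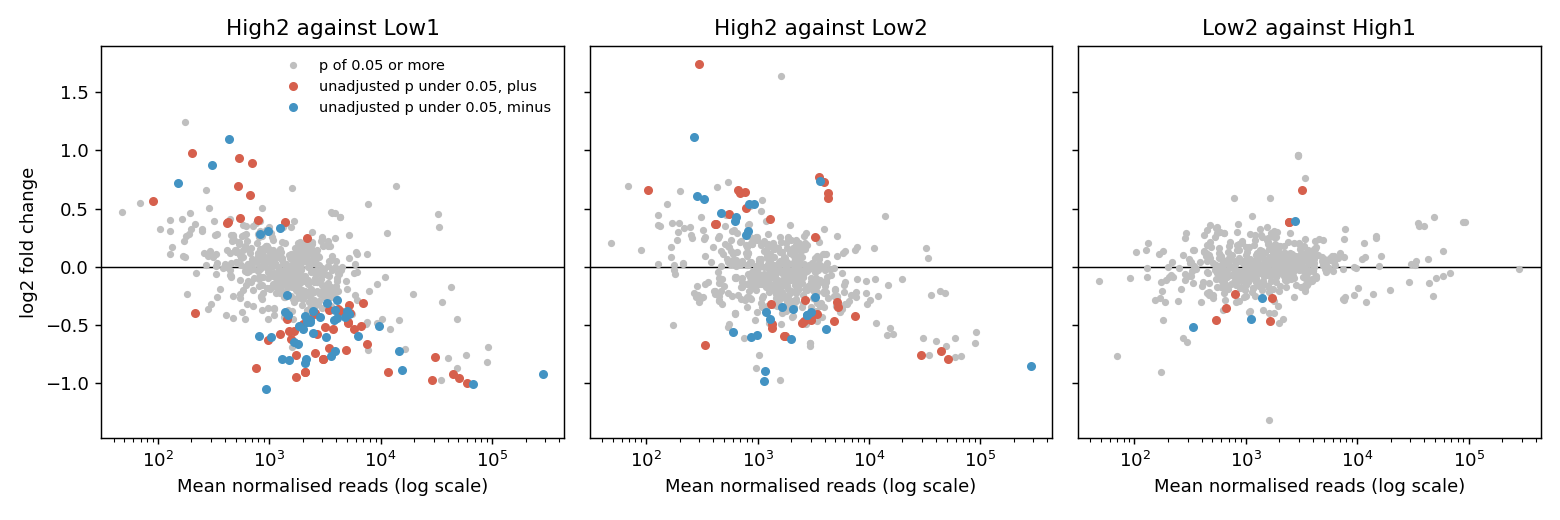
Log2 fold change (y axis) against mean normalised reads (x axis, log scale) of the 588 single-strand clusters in 3 comparisons, with clusters of unadjusted p under 0.05 coloured by strand. High2 against Low1 has 98 coloured points, 80 of them below 0, High2 against Low2 has 61 and Low2 against High1 has 12.

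Low2 against High1, the matching comparison in the High-first line, gave far fewer. Limma called 0 clusters at an adjusted p of 0.05, and 12 of the 588 (2.04%) had an unadjusted p under 0.05, beside 2.58% of all clusters. The smallest p was that of chr8:24392030-24401024 (minus), with 749 to 1205 normalised reads in Low2 (median 916.0) and 1072 to 1661 in High1 (median 1202). Its log2 fold change was -0.45 ± 0.15 with adjusted p = 0.999. It was followed by chr20:9891534-9903590 (plus) and its alternative version chr20:9885451-9898014, both 0.38 ± 0.15. Of the 12, 4 were higher and 8 lower in Low2 (0.68% and 1.36% of the 588, beside 0.858% and 1.72% of all clusters). The 4 and 8 became 7 and 5 in limma-voom and 2 and 12 without the 2 shallowest libraries. The count in all was 19 and 20 without Low2 replicate 5 or 9, 21 by the public treatment field and 5 in a fit of the 2 groups alone. No cluster had libraries that did not overlap. Whether the 2 lines differed from each other was not tested.

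High1 against Low1 compared the first treatment of each line. Limma called 0 clusters at an adjusted p of 0.05 and had 34 of the 588 (5.78%) at an unadjusted p under 0.05, beside 6.15% of all clusters. Of these, 10 were higher in High1 (1.7% of the 588, beside 2.72% of all clusters) and 24 lower (4.08%, beside 3.43%). With the sequencing pool as a covariate, however, 20 were higher and 14 lower. The count was 86 without High1 replicate 1, the deepest library, and 21 and 15 without Low1 replicate 4 or 5. The smallest p came from chr7:63048-99933, a minus cluster near the start of chromosome 7. It had 3546 to 4994 normalised reads in High1 (median 3925), 2173 to 3486 in Low1 (median 3079), 2721 to 3469 in High2 (median 3035) and 3059 to 4405 in Low2 (median 3551). All 6 High1 libraries lay above all Low1 and all High2 libraries. The log2 fold change was 0.46 ± 0.12 against Low1, with limma adjusted p = 0.56. It was the only one of the 588 (0.17%) without overlap between High1 and Low1, beside 0.358% of all clusters. A minus cluster of low abundance, chr1:57940016-57946585, had 34.7 to 869 normalised reads in High1 (median 300.3) and 14.7 to 80.9 in Low1 (median 30.3). Its log2 fold change was 2.65 ± 0.77, with adjusted p = 0.61.

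High2 against Low2 compared the second treatments. Limma called 0 clusters at an adjusted p of 0.05 and had 61 of the 588 (10.4%) at an unadjusted p under 0.05, beside 10.2% of all clusters. Of the 61, 26 were higher and 35 lower in High2 (4.42% and 5.95% of the 588, beside 5.58% and 4.58% of all clusters). Without the 2 shallowest libraries, both from Low2, 24 were at that p, 12 higher and 12 lower, with Low2 replicate 3 alone left out 38, with Low2 replicate 6 left out 94 and by the public treatment field 13. With libraries centred on their medians, 30 were higher and 22 lower. The smallest p was that of chr6:1397055-1405986 (minus), with 98.3 to 595 normalised reads in High2 (median 437.6) and 104 to 293 in Low2 (median 156.9). High2 replicate 6, the lowest in that group at 98.3, was below every Low2 library, and the other 5 were above every one. The log2 fold change was 1.12 ± 0.33 with limma adjusted p = 0.40, and without High2 replicate 6 it was 1.48 with adjusted p = 0.0061, which made it the one cluster past the threshold there. The plus cluster chr11:24707413-24718960 had 1670 to 2441 normalised reads in High2 and 2495 to 3268 in Low2. Its groups did not overlap, and its log2 fold change was -0.48 ± 0.15 with adjusted p = 0.40. In all, 2 of the 588 (0.34%) had no overlap, beside 0.644% of all clusters. In High2, 1 was higher and 1 lower, 0.17% each, beside 0.429% and 0.215% of all clusters.

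**Figure D5:**
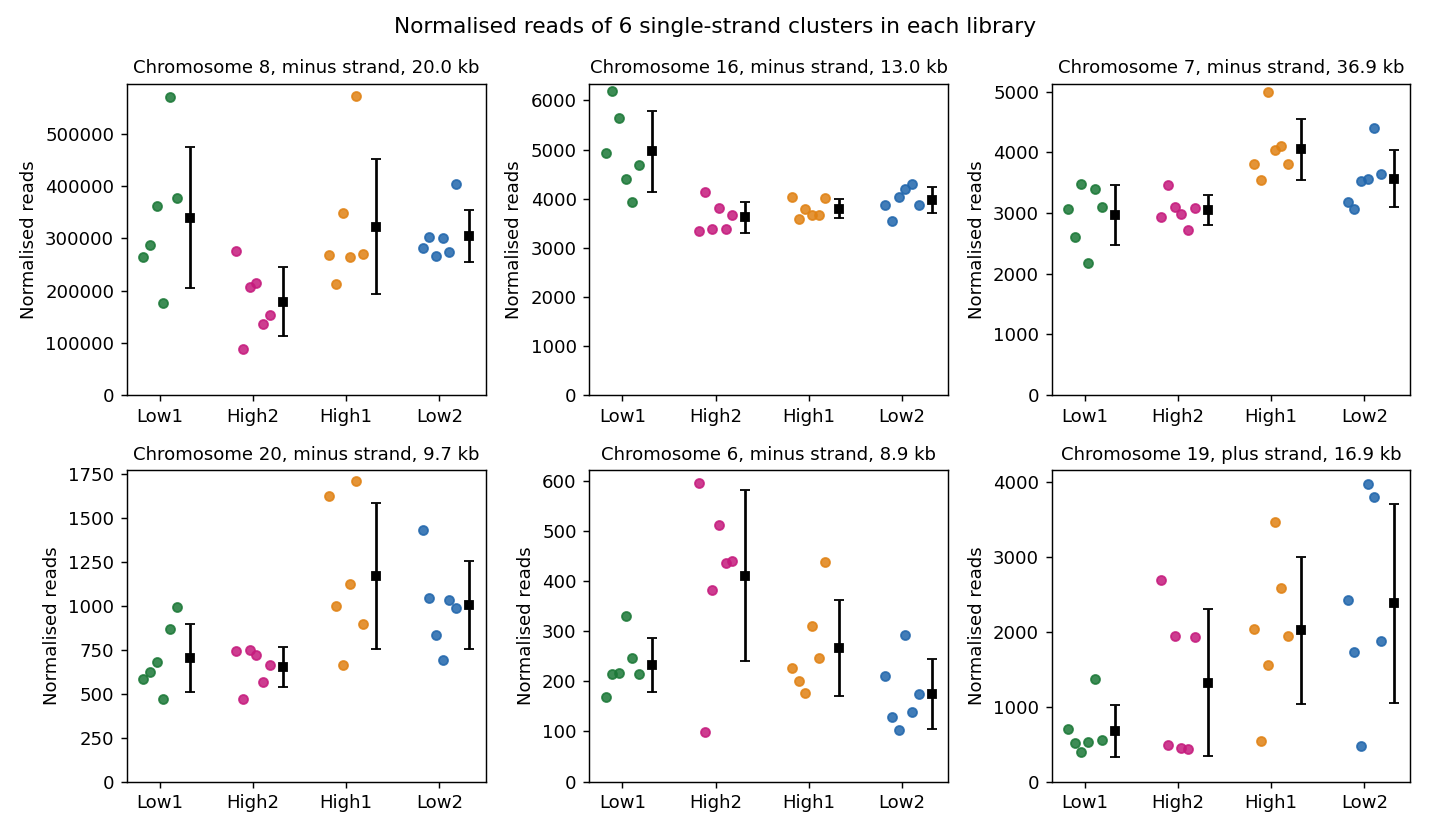
Normalised reads (y axis, from 0) of 6 clusters in each library, by group, with mean and SD as black squares and bars (n = 6): the most abundant cluster and the cluster of smallest p in each of 5 comparisons. High1 stands above Low1 in the chromosome 7 panel (3546 to 4994 against 2173 to 3486), and 1 High2 library lies far below the other 5 in the chromosome 6 panel.

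High2 against High1 compared High as the second and as the first treatment, across the lines. Limma called 0 clusters at an adjusted p of 0.05 and had 48 of the 588 (8.16%) at an unadjusted p under 0.05, beside 8.08% of all clusters. Higher in High2 were 16 plus and 5 minus clusters, and lower were 14 plus and 13 minus. These were 3.57% and 4.59% of the 588, beside 3.72% and 4.36% of all clusters. With each library centred on its median, the 21 higher and 27 lower became 34 and 19. The smallest p was that of chr20:12225229-12234949 (minus), with 471 to 746 normalised reads in High2 (median 692.9) and 663 to 1707 in High1 (median 1061). Its log2 fold change was -0.78 ± 0.22 with adjusted p = 0.40. With the sequencing pool as a covariate, limma called 1 cluster, chr3:2960000-2969978, with a log2 fold change of -1.05 and adjusted p = 0.038. The libraries of 3 clusters did not overlap (0.51% of the 588, beside 0.572% of all clusters). Of the 3, 1 was higher and 2 lower in High2 (0.17% and 0.34%, beside 0.286% in each direction). Without High2 replicate 10, 28 of the 588 had an unadjusted p under 0.05, and by the public treatment field 6.

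A row of plus clusters on chromosome 22 held the next smallest p in that comparison. From base 24728091 to 24902025, 7 plus clusters follow each other over 174 kb with no minus cluster between them. Chr22:24796020-24822028, the fourth of these, had 3447 to 3920 normalised reads in High2 (median 3780), 2210 to 3282 in High1 (median 3040), 3071 to 3637 in Low1 (median 3182) and 2851 to 3485 in Low2 (median 3060). All High2 libraries were above all High1 libraries, and the log2 fold change was 0.35 ± 0.10 with limma adjusted p = 0.40. The next cluster, chr22:24848280-24862020, had 828.6 to 1150 in High2 (median 954.5) and 486 to 914 in High1 (median 663.6), with a log2 fold change of 0.52 ± 0.16. Against Low2 it was 0.51 ± 0.16, again with adjusted p = 0.40. The row was not uniform, since the mean was highest in High2 in 4 of the 7. Chr22:24748161-24770024, the most abundant of them with a mean of 4522 normalised reads, differed from High1 by 0.16 ± 0.15 on the log2 scale. The row was picked out after its values were seen.

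Low2 against Low1 compared Low as the second and as the first treatment. Limma called 0 clusters at an adjusted p of 0.05 and had 30 of the 588 (5.10%) at an unadjusted p under 0.05, beside 4.72% of all clusters. Of the 30, 13 were higher and 17 lower in Low2 (2.21% and 2.89% of the 588, beside 2.36% of all clusters in each direction). In limma-voom 7 were higher and 24 lower. With the sequencing pool as a covariate the direction turned, with 32 higher and 20 lower, and without the 2 shallowest libraries 9 were higher and 45 lower. The count in all was 54 without the 2 shallowest libraries, 46 without Low2 replicate 3, and 14, 17, 46 and 47 without Low1 replicate 5, 4, 6 or 9. The smallest p was that of chr19:10800007-10816911 (plus), with 476 to 3977 normalised reads in Low2 (median 2158), 394 to 1367 in Low1 (median 545.5), 438 to 2694 in High2 (median 1206) and 539 to 3464 in High1 (median 1995). Levels of at most 704 normalised reads were found in 5 of 6 Low1, 3 of 6 High2, 1 of 6 High1 and 1 of 6 Low2 libraries, and all others had at least 1367. The log2 fold change was 1.65 ± 0.53 with limma adjusted p = 0.77. No overlap was found in 1 cluster (0.17% of the 588), lower in Low2, beside 0.0715% of all clusters. Chr22:7565254-7577013 (plus) was next, with a log2 fold change of -0.34 ± 0.11.

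Many clusters varied together from library to library, also between chromosomes. At a Pearson correlation above 0.98 of the log2 values over the 24 libraries, 95 of the 588 were linked into 37 sets. Of the 83 pairs above that value, 27 were on one chromosome number and 55 on the same strand. Most of the 37 sets were pairs of clusters on one chromosome number. Among these were the pairs on chromosomes 6, 16 and 20 named above, each a reference cluster and its alternative version. Clusters of one set share libraries and may share reads, since a read that matches several clusters may count for each. This was not tested. The largest set had 9 clusters on 9 chromosomes, 4 plus and 5 minus, with means of 1518 to 2504 normalised reads and High2 against Low1 log2 fold changes of 0.10 to 0.21. A set of 5 joined 3 of the 10 most abundant clusters, those on chromosomes 14, 19 and 6 (chr6:47412001-47420962), to an alternative cluster of chromosome 18 and one on scaffold KN150064.1.

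That abundant set was high in few libraries. The chromosome 14 member had 363074 normalised reads in Low2 replicate 3 and 214596 in High1 replicate 1, and 31904 to 181425 in the other 22. The highest of these 22 were Low1 replicates 10 and 6, with 181425 and 162298. In the chromosome 19 member these Low1 libraries had 190635 and 171057, near the 199805 of High1 replicate 1. The plus strand held 2 of the 5 and the minus strand 3. Its log2 fold changes for High2 against Low1 were -0.97 to -0.69, with unadjusted limma p of 0.098 to 0.15.

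A further set of 3 plus clusters tracked the chromosome 8 cluster. It holds chr13:11671138-11681626, chr21:35918397-35933959 and a cluster of chromosome 24, and these were the 3 whose correlation with the chromosome 8 cluster exceeded 0.9, up to 0.942. The chromosome 13 member had 13629 to 51207 normalised reads in High2 (median 31449), 29520 to 116481 in Low1 (median 55415), 34242 to 118674 in High1 (median 50497) and 27887 to 74102 in Low2 (median 51886). The 3 had log2 fold changes of -0.97 to -0.92 for High2 against Low1, with unadjusted limma p of 0.0077 to 0.011 and adjusted p = 0.20 in the clusters of chromosomes 13 and 21. The chromosome 10 and scaffold KN149977.2 clusters formed a pair with r = 0.999, one on each strand, and log2 fold changes of -1.01 and -0.9997 for High2 against Low1.

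Another set of 3 lay near chromosome ends. Chr5:773008-785007 (plus), chr7:39039-51015 (minus) and chr20:55121037-55132985 (plus) are 11.9 to 12.0 kb long and had means of 2959, 2966 and 2941 normalised reads. The lowest correlation among them was 0.9986. The chromosome 20 member had 11762 normalised reads in Low2 replicate 4, 8472 in High2 replicate 8, 5637 in Low1 replicate 9 and 1002 to 5157 in the other 21. No group was high or low throughout, and the log2 fold changes for High2 against Low1 were 0.22 to 0.25 with SE of 0.49 to 0.50.

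Single libraries, or a few of them, set the values of several other clusters. The coefficient of variation over the 24 libraries had a median of 24.1% and exceeded 50% in 43 of the 588. Chosen from these 43 after their values were seen were chr16:7680029-7700864, chr2:57775001-57780018, chr7:22472001-22478024 and chr5:54887139-54893004. Chr16:7680029-7700864 (plus) had 69302 normalised reads in High1 replicate 7 and 53224 in High2 replicate 10, and 5991 to 14650 in the other 22. The long minus cluster of the same chromosome, chr16:9451003-9537008, named for its length and with a coefficient of variation of 39.1%, was also highest in those 2 libraries, at 73946 and 70526, against 22676 to 37968 in the rest. Chr2:57775001-57780018 (plus) had 0 reads in High2 replicate 2 and in Low2 replicate 3, which allow up to 2.04 and 48.1 normalised reads, and 6779 in High2 replicate 7. Chr7:22472001-22478024 (plus) reached 4085 normalised reads in Low2 replicate 3, where its group otherwise had 242 to 1235. It also had 3410 and 2957 in High1 replicates 1 and 3, against 253 to 973 in the other High1 libraries. Chr5:54887139-54893004 (plus) was the least abundant member, with a mean of 48.0 normalised reads and 0 in Low2 replicate 2. Only 3 of the 588 had a library at 0, and 567 had at least 10 reads in every library.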

How the data were processed

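Reads of 24 sperm libraries were analysed as the authors' piRNA table gives them. The authors trimmed adaptors, used PatMaN, allowing no mismatch and no gap, against database clusters plus proTRAC clusters predicted from all libraries pooled, and counted them with a Perl script. A read may have been counted in several clusters, so sums and shares of reads here are of counts on clusters and not of separate reads. Cluster names give build GRCz11, whereas the submitters' processing notes name GRCz10. Deposited values are log2 of normalised reads plus 4, normalised with DESeq2 by the submitters' notes. Recovered reads were whole in 100% of values (tolerance 0.05 reads). Such sums over clusters ranged from 5983071 to 56435023 per library. They limit counting error only, as reads carry no molecular identifiers.

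Here, limma 3.58.1 (R 4.3.3, eBayes with trend, 4 groups in one fit) tested all 1434 clusters, Benjamini-Hochberg adjusted, with a threshold of 0.05. Calls were counted over the 1398 distinct clusters. Error terms are SE for log2 fold changes and SD for levels. Shares of reads were compared with two-sided exact permutation tests over 924 arrangements, adjusted over 6 comparisons. In simulated data for High2 against Low1 with 1434 clusters, 88% of 200 clusters changed by 2-fold were recovered. All clusters were drawn independently with a dispersion of 0.08. Smaller changes, and clusters that vary together or more widely, were not simulated, so this share does not hold for them. Each male was sampled after both treatments of its line, so High2 and Low1, and likewise Low2 and High1, can hold libraries of the same males. The labels used here do not say which libraries share a male, so the tests treat libraries as independent, and p-values within a line do not account for shared males.

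Named clusters were the 10 most abundant, the 5 densest, the 2 longest and 2 shortest of each strand, and the 3 of smallest p per comparison. The members and lists were chosen with earlier results of these data known. Alternatives were limma without trend, centred libraries, the lowest 25% of clusters dropped, the compared groups alone, a replicate block, public treatment labels, pool as covariate, pseudocount 1, identical rows once, limma-voom on recovered reads, and leaving out each library. For shares they were every row counted and the 3 most abundant clusters left out. Leaving out the 2 shallowest libraries was added after the data were seen. The authors' miRNA table, also deposited log2 values, served for the marker miRNAs only, as CPM of its recovered reads. Of 40 samples, 16 have no column in the piRNA table used here and are not analysed. Python 3.11.15, scipy 1.17.1 and matplotlib 3.10.9 were used.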

Additional observations from a re-analysis of the deposited data

Results flagged for a closer look

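The values below lay apart from the other 5 libraries of their group by Dixon's test at 95%, in 39 of 192 groups tested (20.3%). For normally distributed values, chance alone sets about 1 in 20 groups apart. The values tested were not log-transformed, and clusters that vary together are counted repeatedly. Some of the clusters were also chosen after their values were seen, so the share flagged cannot be set against that of chance. Values are normalised reads unless another unit is given.

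For the shares, High2 replicate 6 had 50.9% of single-strand reads on plus clusters, against 48.5% to 49.2% in the other High2 libraries. In the most abundant cluster, chr8:48510001-48530023, Low2 replicate 9 had 403659, and in the clusters that tracked it, Low1 replicate 9 had 96294 in chr21:35918397-35933959 and High1 replicate 7 had 118674 in chr13:11671138-11681626. High1 replicate 7 also had 200689 in the alternative chr10:18800009-18811031 and 174939 in its partner on scaffold KN149977.2.

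High1 replicate 1 and Low2 replicate 3 were high in all members of the abundant set tested. They had 214596 and 363074 in chr14:39709045-39718544, 199806 and 387982 in chr19:24919052-24938951, 118772 and 236005.5 in chr6:47412001-47420962, and 103473 and 195096 in the cluster of scaffold KN150064.1. High2 replicate 8 was high in the chromosome 19 and 6 members, with 95738 and 50023. Low2 replicate 3, the shallowest library, also had 195721 in chr11:19897861-19905931 and 4085 in chr7:22472001-22478024.

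The set near chromosome ends stood out in the same libraries for each member. High2 replicate 8 had 8480, 8492 and 8472, and Low1 replicate 9 had 5596, 5605 and 5637, in the chromosome 5, 7 and 20 clusters. On chromosome 16, High1 replicate 7 and High2 replicate 10 had 69302 and 53224 in chr16:7680029-7700864, 73946 and 70526 in chr16:9451003-9537008, and 69327 and 65662 in its alternative version.

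Among the clusters of smallest p, High1 replicate 1 had 2210 in chr22:24796020-24822028, below the other High1 libraries at 2899 to 3282, and 5124 and 5114 in the chromosome 6 pair, above 2119 to 3032 in the others of the reference member. High2 replicate 8 had 3877 in both chr20:9891534-9903590 and its alternative version, and Low1 replicate 9 had 1367 in chr19:10800007-10816911. In long or rare clusters, High1 replicate 3 had 7594 in chr8:44870330-44916019, High1 replicate 10 had 51441 in the alternative chr8:45178005-45287032, and High1 replicate 10 had 226.7 in chr5:54887139-54893004.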

How the results depend on the processing

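Adjusted calls stayed at 0 of the 588 clusters in most alternatives. The exceptions were 24 for High2 against Low1 in a fit of those groups alone, 1 for High2 against High1 with the pool as a covariate, and 0 to 1 for High2 against Low2 over left-out libraries, the 1 without High2 replicate 6. Counts at an unadjusted p under 0.05 are given next over the alternatives that kept all libraries of the compared groups in the fit. They ran from 43 to 165 for High2 against Low1, 5 to 21 for Low2 against High1 and 27 to 36 for High1 against Low1. The ranges were 13 to 92 for High2 against Low2, 6 to 81 for High2 against High1 and 20 to 52 for Low2 against Low1. Left-out libraries are not part of these ranges. The 165, 5, 27 and 20 came from fits of the compared groups alone. Without the 2 shallowest libraries the counts were 110, 14, 39, 24, 59 and 54. Unadjusted counts in alternatives, here and above, are of the 588 only, with no share over all clusters beside them. They show nothing particular to single-strand clusters. Of 628 alternative fold changes of named clusters, 622 kept their direction and side of the threshold. Several alternatives cannot change a difference of group means, among them limma without trend and leaving out a library of another group. The named clusters also began short of the threshold. This count is therefore no measure of how stable the fold changes were. By the public treatment field, High2 against Low2 turned to -0.719 in chr6:1397055-1405986, 0.231 in chr11:24707413-24718960 and -0.279 in chr22:24848280-24862020.

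For the single-strand share, leaving out the 2 shallowest libraries gave 0.621 percentage points for Low2 against High1 and -0.993 for High2 against Low2. Over left-out libraries it ran from -1.39 to 0.491 for High2 against High1 and from -0.231 to 1.51 for High2 against Low2. For the plus share, leaving out the 3 most abundant clusters gave -0.859, -0.124, -0.139 and -0.262 points for High2 against Low1, Low2 against High1, High2 against Low2 and High2 against High1. The public field gave -0.692 for High2 against Low1, -0.878 for High2 against Low2, 0.647 for High2 against High1 and 0.187 for Low2 against Low1. Without the 2 shallowest libraries, High2 against Low2 was 1.86 with adjusted exact permutation p = 0.057. Over left-out libraries the plus share difference ran from 1.23 to 2.01 for High2 against Low1 (past the threshold without Low1 replicate 7), -0.107 to 0.644 for Low2 against High1, 1.46 to 2.07 for High2 against Low2, 1.68 to 2.43 for High2 against High1 and -0.559 to 0.222 for Low2 against Low1. The causes were not tested.

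With library number as a replicate block, limma gave 0 adjusted calls, and 95, 10, 34, 61, 53 and 32 clusters at an unadjusted p under 0.05 in the order of comparisons above. Libraries of one number within a line correlated from -0.311 to 0.346 over all clusters (7 pairs), 1 of them over 0.1. Over the single-strand clusters they correlated from -0.298 to 0.217. So few and scattered values cannot show whether libraries of one number come from one male. Low2 replicates 2 and 3, at 7414024 and 5983071 reads summed over clusters, limit the values of rare clusters most.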
